A study of Saccharomyces cerevisiae with 8 samples.

Results

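The mitochondrial protein import machinery is described here by 34 nuclear genes of budding yeast, chosen by name and not by their values. Each gene is represented by 1 probe set, a group of probes designed for its transcript, that the platform annotation ties to that gene alone. All 34 genes had such a probe set, among 5656 genes with one in the series, and all 34 passed the filter on dim signals. ERV1 has 3 probe sets, the other 33 genes 1 each, and for ERV1 the one with the highest mean over 8 arrays was taken. By the place where their products work, 11 genes belong to the outer membrane, 7 to the intermembrane space, 11 to the inner membrane and 5 to the matrix.

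The study measured transcripts on 1 expression array per sample, in 4 groups of 2 samples. The heme-depleted samples came from a strain labelled as a hem1 delta, grown for 16 h in the rich medium YPD without 5-aminolevulinic acid (ALA). Their counterparts were the same strain, so with the same deletion, grown for 16 h in YPD with 250 µM ALA, the heme precursor that the Hem1 enzyme makes. Both had first been grown for 6 h with ALA and washed. The wild type, BY45742 as the labels spell it, was grown for 6 h and then for 12 h in an anaerobic chamber (hypoxia) or in air (normoxia), with no ALA named. Labels tell of duplicate cultures for hem1 only, so the p-values reflect only how far these samples lie apart, possibly for technical reasons. The treatments also differ in strain and time.

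Nearly all mitochondrial proteins are made in the cytosol and must cross one or both mitochondrial membranes. The TOM complex of the outer membrane is the common entry gate. From there the SAM complex inserts barrel proteins into the outer membrane, small TIM chaperones carry hydrophobic precursors through the intermembrane space, and the MIA pathway traps cysteine-rich proteins there by oxidation. The TIM22 complex inserts carriers into the inner membrane, and the TIM23 complex passes proteins with a presequence to the matrix, pulled by the PAM motor around a mitochondrial Hsp70. The processing peptidase then removes the presequence. Import into or across the inner membrane needs an electrical potential across that membrane, and cells keep this potential in some form also when they do not respire.

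Signals are MAS5 values on a linear scale, which the authors brought to 1 trimmed mean per array. Array medians lay between 98.1 and 158.8, and arrays of 1 group correlated at 0.976 to 0.985 over the 7081 probe sets tested. ANB1 and DAN1, which yeast turns on when heme or oxygen is short, and CYC1, which needs both, were checked in all groups. ANB1 read 11879 and 9776 without ALA, 7713 and 8217 with ALA, 12336 and 14677 in hypoxia, and 518 and 629 in normoxia. DAN1 read 5919 and 6119 without ALA, 1357 and 2638 with ALA, 7492 and 8259.5 in hypoxia, and 11.5 and 32.7 in normoxia. CYC1 read 10.9 and 13.7 without ALA, 18.3 and 32.1 with ALA, 22.2 and 17.6 in hypoxia, and 660.4 and 809.6 in normoxia. On all 3 genes the hem1 arrays with ALA lay on the side of hypoxia and far from normoxia: ANB1 was 13.9-fold higher with ALA than in normoxia (adjusted p = 2.1e-05), DAN1 at least 64.2-fold higher (1.2e-04) and CYC1 at least 20.1-fold lower (1.2e-04). Between the hem1 groups ANB1 did not pass (0.44, SE 0.17, adjusted p = 0.0564), DAN1 was 3.18-fold higher without ALA (adjusted p = 0.0159), and CYC1 was dim in both. With quantile normalization ANB1 passed as higher without ALA (0.74, adjusted p = 0.0039). The DAN1 call was not stable. It ended without replicate 1 or 2 of the ALA-free arrays (log2 differences of 1.69 and 1.65) and without replicate 1 with ALA (1.19). The comparison without and with ALA is therefore one between hem1 cultures that both differ from normoxia in these genes. The HEM1 probe set read 849 and 696 without ALA, 459.7 and 608 with ALA, 1413 and 1613 in hypoxia, and 707 and 683 in normoxia. HEM1 passed as higher in hypoxia (1.12, SE 0.19, adjusted p = 0.0013) and without ALA (0.54, SE 0.19, adjusted p = 0.0422). The call without ALA was lost with median centring, quantile normalization and spike scaling. The probe set does not show the deletion, and whether it lies in the deleted part is not known here. Moving with hypoxia, the ACT1 control's 3′/5′ signal ratio, which climbs as RNA degrades, stood at 2.11 and 2.18 in hypoxia against 1.40 and 1.49 in normoxia. It was 1.81 and 1.77 without ALA and 1.86 and 1.57 with ALA. Replicate 1 without ALA and replicate 2 in hypoxia had a mean 18S ribosomal RNA signal of 1473 and 2893, against 73.1 to 232 on the other arrays. The part of RNA quality and of 18S signal in the results below was not tested, but counts without these 2 arrays are given. With fewer arrays a call can end while its difference stays as large, or because the difference shrinks. The difference is printed beside the losses named for these 2 arrays. For other arrays left out, often only an adjusted p is given, and some of those differences were smaller. Cultures were measured in bulk, so fewer cells with a transcript and less of it per cell cannot be told apart.

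More import genes were lower than higher under both treatments. Differences were tested with limma on log2 signals, with p-values adjusted over all 7081 probe sets and a threshold of 0.05. Without ALA 14 of 34 import genes were lower than with ALA and 1 was higher, beside 19.7% of all probe sets lower and 30.2% higher. In hypoxia 16 were lower than in normoxia and 4 were higher, beside 22.5% of all probe sets lower and 33.3% higher. Taken per gene, 19% of 5283 genes were lower without ALA and 25.2% in hypoxia, against 41.2% and 47.1% of the import genes. The median log2 difference of the import genes was -0.37 without ALA, against 0.14 over all probe sets, and -0.45 in hypoxia, against 0.21. Shares of all probe sets were not taken with arrays left out, so the next counts have none beside them. Without the 2 arrays high in 18S RNA 11 import genes were lower without ALA and 1 was higher, and 11 were lower in hypoxia and 1 was higher.

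**Figure D1:**
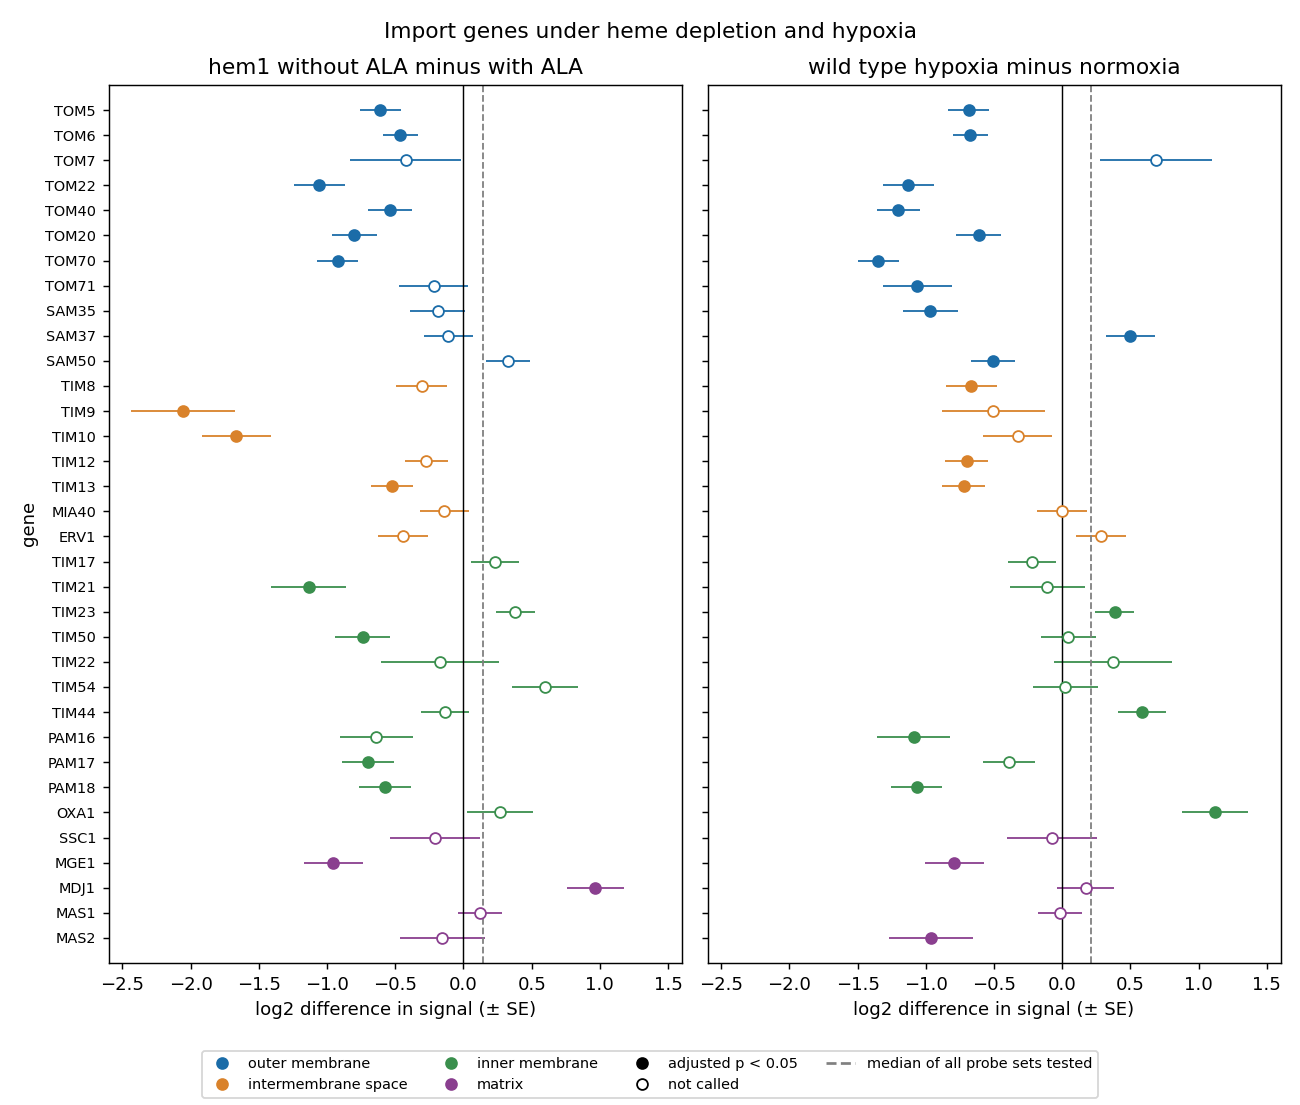
Log2 difference in signal of each of the 34 import genes (points, with bars of ± 1 SE) without ALA minus with ALA on the left and hypoxia minus normoxia on the right, n = 2 arrays per group. Colours give the compartment, filled points passed the test, and the dashed line is the median of all 7081 probe sets tested. Most filled points lie left of 0 in both panels. TIM9 and TIM10 lie farthest left without ALA, while TOM70 and TOM40 do so in hypoxia.

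At the outer membrane 6 of 8 TOM genes fell under both treatments, beside 12% of all probe sets lower under both. TOM22 encodes the central receptor that holds the TOM complex together. It read 568 and 593 without ALA, 1046 and 1394 with ALA, 491 and 473 in hypoxia, and 949 and 1170 in normoxia. In both pairs the treated arrays lay far below their counterparts, with no overlap, at log2 differences of -1.06 (SE 0.19, adjusted p = 0.0022) without ALA and -1.13 (SE 0.19, adjusted p = 0.0012) in hypoxia. TOM40, the pore itself, read 1011 and 980.3 without ALA, 1289 and 1621 with ALA, 792 and 853 in hypoxia, and 1933 and 1849 in normoxia. It fell 1.45-fold without ALA (-0.54, SE 0.16, adjusted p = 0.0218) and 2.30-fold in hypoxia (-1.20, SE 0.16, adjusted p = 3.8e-04). The hypoxic call held under all 17 alternatives, as both TOM22 calls did, but the fall of TOM40 without ALA was lost without replicate 1 (adjusted p = 0.0585) or 2 (0.0763) of the ALA-free arrays, without replicate 2 with ALA (0.137) and without the 2 arrays high in 18S RNA (-0.56, adjusted p = 0.0776).

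The genes of the small TOM subunits behaved unevenly. TOM5 read 1276 and 1161 without ALA, 1703 and 2021 with ALA, 1233 and 1250.2 in hypoxia, and 1941 and 2056 in normoxia. It fell by 0.61 (SE 0.15, adjusted p = 0.0098) on the log2 scale without ALA and by 0.69 (SE 0.15, adjusted p = 0.0047) in hypoxia. TOM6 read 4708 and 4378 without ALA, 6149 and 6371 with ALA, 3945 and 4392 in hypoxia, and 6805 and 6478 in normoxia. Neither gene's arrays overlapped between treated cultures and their counterparts. TOM6 fell by 0.46 (SE 0.13, adjusted p = 0.0164) without ALA and by 0.67 (SE 0.13, adjusted p = 0.0024) in hypoxia. Both calls without ALA were lost without replicate 2 of the ALA-free arrays (adjusted p = 0.0504 for TOM5 and 0.0783 for TOM6) and without replicate 2 with ALA (0.0661 and 0.068). With quantile normalization TOM6 did not pass without ALA (0.132), and with spike scaling TOM5 did not pass in hypoxia (0.0615). TOM7 passed in neither comparison, and its replicates disagreed: 521 and 420.0 without ALA, 420.2 and 938 with ALA, 573 and 619 in hypoxia, and 261 and 523 in normoxia. It passed as higher in hypoxia without replicate 2 in normoxia (1.19, adjusted p = 0.0424).

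All 3 receptor genes were lower in hypoxia, as were 22.5% of all probe sets. TOM70 encodes the receptor for carrier precursors that chaperones deliver. It read 483 and 512 without ALA, 899 and 988 with ALA, 402 and 422 in hypoxia, and 999 and 1104 in normoxia. The treated arrays lay tightly together and far below their counterparts, at -0.92 (SE 0.15, adjusted p = 0.0014) without ALA and -1.35 (SE 0.15, adjusted p = 1.5e-04) in hypoxia. Both calls held under all 17 alternatives. TOM20, the receptor for presequences, read 1672 and 1286 without ALA, 2503 and 2608 with ALA, 1817 and 1603 in hypoxia, and 2642 and 2575 in normoxia. It fell 1.74-fold without ALA (-0.80, SE 0.16, adjusted p = 0.0044), under all alternatives, and 1.53-fold in hypoxia (-0.61, SE 0.16, adjusted p = 0.0127). The hypoxic call was lost with spike scaling (adjusted p = 0.114), without replicate 2 in hypoxia (0.0755) and without replicate 1 in normoxia (0.0503).

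TOM71 encodes a paralog of TOM70 and had a far lower signal, which says nothing of their relative abundance since probes differ. It read 43.8 and 41.5 without ALA, both below the 30th percentile of their array, 46.4 and 53.2 with ALA, 45.3 and 48.2 in hypoxia, and 82.5 and 115.4 in normoxia. Only the normoxia arrays stood out. The log2 difference was -1.06 (SE 0.25, adjusted p = 0.0076) in hypoxia and -0.22 (SE 0.25, adjusted p = 0.499) without ALA. The call was lost without replicate 2 in normoxia (adjusted p = 0.0508) and without the 2 arrays high in 18S RNA (-1.11, adjusted p = 0.0519).

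The SAM genes passed in hypoxia only, and in both directions. SAM35, a receptor subunit for barrel precursors, read 163 and 182 without ALA, 198 and 194 with ALA, 159 and 129.6 in hypoxia, and 244 and 323 in normoxia. It fell 1.96-fold in hypoxia (-0.97, SE 0.20, adjusted p = 0.0040), under all alternatives. SAM50, the barrel that forms the insertion site, read 449 and 434 without ALA, 324 and 382 with ALA, 306 and 332 in hypoxia, and 448 and 458 in normoxia. Its log2 difference was 0.33 (SE 0.16, adjusted p = 0.119) without ALA and -0.51 (SE 0.16, adjusted p = 0.0248) in hypoxia, so the arrays without ALA lay above their counterparts and those in hypoxia below. The hypoxic call was lost with spike scaling (adjusted p = 0.185), without any 1 of the hypoxia or normoxia arrays (-0.45 to -0.57, adjusted p = 0.0557 to 0.107) and without the 2 arrays high in 18S RNA (-0.57, adjusted p = 0.0697). SAM37, a peripheral subunit, read 262 and 321 without ALA, 293 and 335 with ALA, 258 and 267 in hypoxia, and 198 and 175 in normoxia. It rose by 0.50 (SE 0.18, adjusted p = 0.0421) in hypoxia, a call that 11 of 17 alternatives ended, with 0.01 by median centring (adjusted p = 0.966), 0.10 by quantile normalization (0.642) and adjusted p of 0.0608 to 0.163 without any 1 hypoxia or normoxia array. Leaving out either array with ALA, which are not in the contrast, also ended it (0.0535 and 0.0538). Without ALA neither SAM35 (-0.19, adjusted p = 0.466) nor SAM37 (-0.11, adjusted p = 0.63) passed, but with median centring both did, as lower (0.0314 and 0.0394), and SAM35 also with quantile normalization (0.0352).

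**Figure D2:**
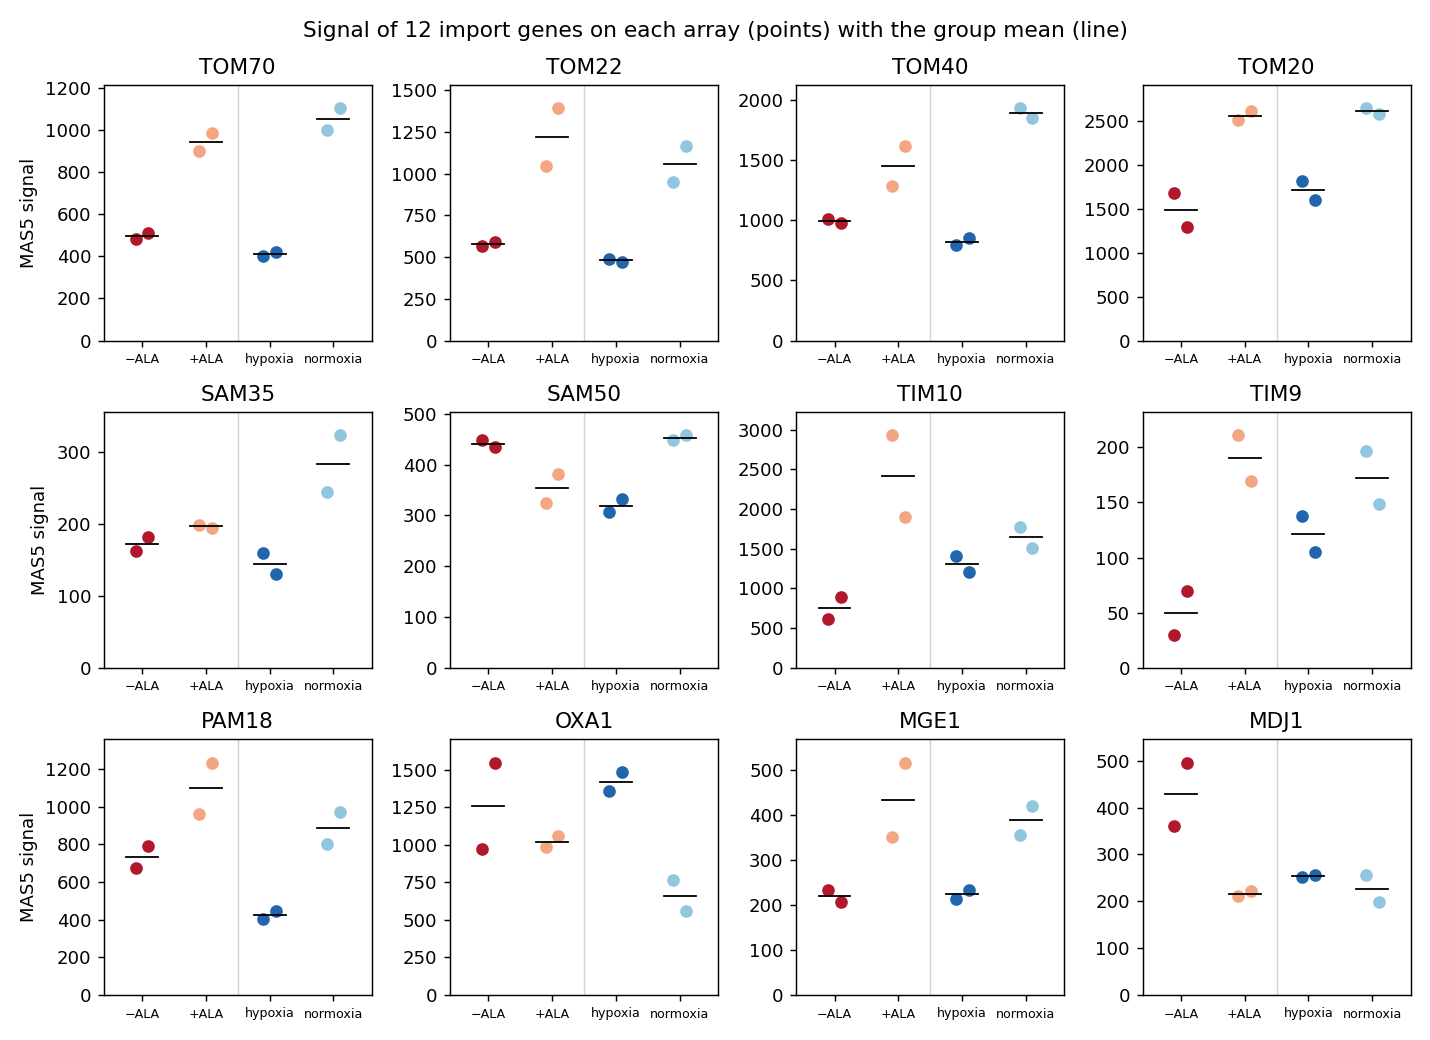
MAS5 signal on each array (points) and group mean (line) of 12 import genes in the 4 groups, from left to right hem1 without ALA (−ALA), hem1 with ALA (+ALA), wild type in hypoxia and wild type in normoxia, n = 2 each. Every vertical axis starts at 0 and has its own range. TOM70 and TOM22 are low in both treated groups. TIM10 and TIM9 are lowest without ALA, MDJ1 is high without ALA only, and OXA1 is lowest in normoxia.

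In the intermembrane space TIM9 and TIM10 fell without ALA, TIM8 and TIM12 in hypoxia, and TIM13 under both. TIM9 and TIM10 encode the partners of the main hexameric chaperone for carriers. TIM10 read 616 and 893 without ALA, 2927 and 1893 with ALA, 1408 and 1209 in hypoxia, and 1768 and 1514 in normoxia. It fell 3.17-fold without ALA (-1.67, SE 0.25, adjusted p = 0.0010), and in hypoxia the log2 difference was -0.33 (SE 0.25, adjusted p = 0.30). TIM9 read 29.9 and 69.3 without ALA, 211 and 169.5 with ALA, 138 and 105 in hypoxia, and 197 and 148 in normoxia. Only 1 of its ALA-free arrays lay above the 30th percentile, so it was at least 3.26-fold lower without ALA (-2.06, SE 0.38, adjusted p = 0.0027). Its hypoxic difference was -0.50 (SE 0.38, adjusted p = 0.283). Both calls without ALA held under all 17 alternatives. With median centring TIM10 passed as lower in hypoxia too (-0.81, adjusted p = 0.0327).

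TIM8 and TIM13, the partners of the second small TIM complex, and TIM12, which docks on the TIM22 complex, fell in hypoxia. TIM13 read 2407 and 2144 without ALA, 3445 and 3091 with ALA, 2089 and 1750.2 in hypoxia, and 3356 and 2968 in normoxia. It fell by 0.72 (SE 0.16, adjusted p = 0.0047) in hypoxia, under all alternatives, and by 0.52 (SE 0.16, adjusted p = 0.0231) without ALA. The call without ALA ended without replicate 2 of the ALA-free arrays (adjusted p = 0.106) or replicate 1 with ALA (0.116). TIM8 read 317 and 281 without ALA, 429 and 317 with ALA, 289.9 and 281 in hypoxia, and 445 and 460.0 in normoxia. TIM12 read 353 and 346 without ALA, 418 and 428 with ALA, 248 and 231 in hypoxia, and 361 and 418 in normoxia. For both, the hypoxia arrays were below the normoxia arrays, by 0.67 (SE 0.19, adjusted p = 0.0153) for TIM8 and 0.70 (SE 0.16, adjusted p = 0.0058) for TIM12. The TIM8 call ended with spike scaling (0.0632), without the 2 arrays high in 18S RNA (-0.64, adjusted p = 0.082), without either hypoxia array (0.0561 and 0.069) and without replicate 2 in normoxia (0.0553), and the TIM12 call with spike scaling (0.0572). Without ALA neither passed (-0.31 and -0.27, adjusted p = 0.202 and 0.179), but both did with median centring (0.0154 and 0.0058) and quantile normalization (0.0261 and 0.0155).

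The genes of the MIA relay did not pass. MIA40, the oxidoreductase that receives cysteine-rich precursors, read 395 and 392 without ALA, 434.9 and 432 with ALA, 399 and 441 in hypoxia, and 362 and 487 in normoxia. It passed as lower with median centring under both treatments (adjusted p = 0.0218 without ALA and 0.0307 in hypoxia). ERV1 encodes the oxidase that recycles MIA40 and passes electrons to cytochrome c or oxygen. It read 425 and 584 without ALA, 699 and 655 with ALA, 855 and 792 in hypoxia, and 691 and 658 in normoxia, at -0.44 (SE 0.18, adjusted p = 0.0742) without ALA and 0.29 (SE 0.18, adjusted p = 0.212) in hypoxia. The other ERV1 probe sets were lower without ALA too, 1 past the threshold (-0.66, SE 0.16, adjusted p = 0.0102) and 1 not (-0.50, SE 0.21, adjusted p = 0.0764), and neither passed in hypoxia. With median centring (adjusted p = 0.0063), quantile normalization (0.0231) and spike scaling (0.0205), and without replicate 2 of the ALA-free arrays (0.0237), the main ERV1 probe set passed as lower without ALA.

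Of 11 inner membrane genes 3 were higher (27.3%) and 2 lower (18.2%) in hypoxia, near the shares of all probe sets (33.3% and 22.5%), and their median of 0.02 turned to -0.47 with median centring and -0.23 with quantile normalization. Without ALA 4 were lower (36.4%, beside 19.7% of all probe sets) and none was higher (beside 30.2%). In the TIM23 complex, TIM21, the subunit that touches the TOM complex, read 251 and 460.5 without ALA, 816 and 682 with ALA, 493 and 411 in hypoxia, and 474 and 496 in normoxia. It fell 2.20-fold without ALA (-1.13, SE 0.27, adjusted p = 0.0092), a call lost without replicate 1 with ALA (0.0604), and gave -0.11 in hypoxia (SE 0.27, adjusted p = 0.755). TIM50, the presequence receptor, read 344 and 260.0 without ALA, 504 and 495 with ALA, 405 and 369 in hypoxia, and 424 and 331 in normoxia. It fell by 0.74 (SE 0.20, adjusted p = 0.0150) without ALA and passed no test in hypoxia (0.05, adjusted p = 0.861). Its call ended without replicate 2 of the ALA-free arrays (0.0882) or either array with ALA (0.0655 and 0.0587).

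Of the channel genes of the TIM23 complex, TIM23 passed as higher in hypoxia and TIM17 did not pass. TIM23 read 2415 and 2567 without ALA, 1972 and 1856 with ALA, 1679 and 1974 in hypoxia, and 1397 and 1389.9 in normoxia. The treated arrays lay above their counterparts in both pairs, at 0.38 (SE 0.14, adjusted p = 0.0552) without ALA and 0.39 (SE 0.14, adjusted p = 0.0481) in hypoxia. The hypoxic call is slight: 11 of 17 alternatives ended it, and with median centring the difference was -0.10 (adjusted p = 0.568). It was 0.27 without replicate 2 in hypoxia (adjusted p = 0.219), and leaving out any of the other arrays but replicate 1 in hypoxia gave an adjusted p of 0.0577 to 0.128. Without ALA, TIM23 passed with quantile normalization (0.0274), with the stricter filter (0.0496) and with a floor for low signals (0.0474). TIM17, its partner in the channel, read 2524 and 1859 without ALA, 1952 and 1746 with ALA, 1928 and 2136 in hypoxia, and 2320.4 and 2411 in normoxia, and passed only with median centring, as lower in hypoxia (-0.71, adjusted p = 0.0101).

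Neither gene of the TIM22 complex passed. TIM22, the carrier channel, read 249 and 273 without ALA, 291 and 296 with ALA, 218 and 231 in hypoxia, and 307 and 97.8 in normoxia, where the replicates were far apart. Without the higher normoxia array it passed as higher in hypoxia (1.20, adjusted p = 0.0023), so that 1 array decides the value. TIM54, which holds the small TIM proteins at the complex, read 399 and 385 without ALA, 212 and 316 with ALA, 311 and 392 in hypoxia, and 299 and 395 in normoxia. Its difference without ALA was 0.60 (SE 0.24, adjusted p = 0.0673), and it passed without replicate 2 with ALA (0.89, adjusted p = 0.0315).

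The membrane part of the PAM motor was divided between its subunits. PAM18, the J-protein that activates the Hsp70, read 674.5 and 794 without ALA, 962 and 1236 with ALA, 401 and 444 in hypoxia, and 803 and 974 in normoxia. It fell 2.10-fold in hypoxia (-1.07, SE 0.19, adjusted p = 0.0017), under all alternatives, and 1.49-fold without ALA (-0.58, SE 0.19, adjusted p = 0.0340). PAM16, the J-like partner that restrains PAM18, read 102 and 75.9 without ALA, 168 and 112 with ALA, 66.7 and 84.5 in hypoxia, and 148 and 172 in normoxia. As for PAM18, its treated arrays lay below their counterparts in both pairs, at -1.09 (SE 0.27, adjusted p = 0.0088) in hypoxia and -0.64 (SE 0.27, adjusted p = 0.0780) without ALA. The ALA-free fall of PAM18 was lost without replicate 1 of the ALA-free arrays (adjusted p = 0.149), without replicate 2 with ALA (0.194) and without the 2 arrays high in 18S RNA (-0.46, adjusted p = 0.179), and the hypoxic fall of PAM16 without replicate 1 in hypoxia (0.0652). PAM16 passed as lower without ALA with median centring (0.0118), quantile normalization (0.0130) and spike scaling (0.0269) and without replicate 2 with ALA (0.0427).

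PAM17, which helps to assemble the motor, read 457 and 566 without ALA, 944 and 723 with ALA, 574 and 614 in hypoxia, and 726.5 and 835 in normoxia. It fell by 0.70 (SE 0.19, adjusted p = 0.0159) without ALA and gave -0.39 (SE 0.19, adjusted p = 0.115) in hypoxia. The first was lost without replicate 1 of the ALA-free arrays (adjusted p = 0.088), without replicate 1 with ALA (0.110) and without the 2 arrays high in 18S RNA (-0.55, adjusted p = 0.118), and the second passed with median centring (0.0045) and quantile normalization (0.0496). TIM44, which tethers the Hsp70 to the channel, read 561 and 657 without ALA, 729 and 609.5 with ALA, 675 and 755 in hypoxia, and 442 and 511 in normoxia. It rose by 0.59 (SE 0.18, adjusted p = 0.0205) in hypoxia, opposite to PAM16 and PAM18. The rise was lost with median centring (0.10, adjusted p = 0.644), with quantile normalization (0.073), without replicate 2 in hypoxia (0.103), without replicate 1 in normoxia (0.102) and without the 2 arrays high in 18S RNA (0.51, adjusted p = 0.104). Without ALA its difference was -0.14 (adjusted p = 0.547), and it passed as lower with median centring (-0.54, adjusted p = 0.0272).

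OXA1 encodes the insertase that puts proteins made inside mitochondria, and some imported ones, into the inner membrane from the matrix side. It read 975 and 1548 without ALA, 982 and 1060.2 with ALA, 1359 and 1482 in hypoxia, and 765 and 556 in normoxia. It rose 2.18-fold in hypoxia (1.12, SE 0.24, adjusted p = 0.0047), the largest rise among the 34 genes as scaled here, with no overlap of arrays. With median centring the difference was 0.63 (adjusted p = 0.0615). Without ALA the arrays overlapped (0.27, SE 0.24, adjusted p = 0.386).

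Of 5 matrix genes, MGE1 was lower and MDJ1 higher without ALA, and MGE1 and MAS2 were lower in hypoxia. MGE1, the nucleotide exchange factor of the mitochondrial Hsp70, read 233 and 208 without ALA, 351 and 517 with ALA, 214 and 234 in hypoxia, and 357 and 419 in normoxia. It fell 1.94-fold without ALA (-0.95, SE 0.22, adjusted p = 0.0070), under all alternatives, and 1.73-fold in hypoxia (-0.79, SE 0.22, adjusted p = 0.0137). MDJ1 encodes the J-protein that works with the same Hsp70 in folding imported proteins. It read 359.6 and 496 without ALA, 211 and 221 with ALA, 251 and 256 in hypoxia, and 255 and 198 in normoxia. On the deposited scale MDJ1 was the only import gene that passed as higher without ALA, 1.95-fold (0.97, SE 0.21, adjusted p = 0.0056), and in hypoxia its arrays overlapped (0.17, adjusted p = 0.505). The MDJ1 rise fell just short with median centring (0.56, adjusted p = 0.0567). The hypoxic call of MGE1 was lost with spike scaling (0.0778), without replicate 1 in hypoxia (0.0746), without replicate 2 in normoxia (0.067) and without the 2 arrays high in 18S RNA (-0.86, adjusted p = 0.0611).

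SSC1, the mitochondrial Hsp70 itself, passed in no comparison and its replicates were uneven. It read 575 and 689.9 without ALA, 557 and 951 with ALA, 669 and 706 in hypoxia, and 529.8 and 990.1 in normoxia, at -0.21 (SE 0.33, adjusted p = 0.624) and -0.08 (SE 0.33, adjusted p = 0.861). Among the subunits of the processing peptidase, MAS2 read 183 and 133 without ALA, 163 and 185 with ALA, 135 and 70.0 in hypoxia, and 199 and 180.3 in normoxia. MAS2 fell by 0.96 (SE 0.31, adjusted p = 0.0279) in hypoxia, a call lost with spike scaling (adjusted p = 0.0841), without replicate 2 in hypoxia (-0.49, 0.181), without either normoxia array (0.0935 and 0.0567) and without the 2 arrays high in 18S RNA (-0.49, adjusted p = 0.139). MAS1, the catalytic partner, read 631 and 698 without ALA, 609 and 610.0 with ALA, 419 and 500.4 in hypoxia, and 445 and 483 in normoxia. It passed only with median centring, as lower in hypoxia (adjusted p = 0.0189).

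Counted by compartment on the deposited scale, the outer membrane held the most hypoxic falls. As given above, TOM5, TOM20 and SAM50 lost theirs with spike scaling. TOM71 and SAM50 lost theirs without the 2 arrays high in 18S RNA. In hypoxia 9 of 11 outer membrane genes were lower and 1 was higher, against 3 and 0 of 7 in the intermembrane space, 2 and 3 of 11 in the inner membrane, and 2 and 0 of 5 in the matrix. These counts stand beside 22.5% of all probe sets lower and 33.3% higher in hypoxia, and the inner membrane, with 18.2% and 27.3%, is near those shares. Without ALA 6 outer membrane, 3 intermembrane space, 4 inner membrane and 1 matrix gene were lower, and only MDJ1 was higher, beside 19.7% of all probe sets lower and 30.2% higher. The matrix, with 20% lower, is near the first of these. Median log2 differences in hypoxia were -0.69 for the outer membrane, -0.50 for the intermembrane space, 0.02 for the inner membrane and -0.08 for the matrix. In the same order they were -0.46, -0.44, -0.17 and -0.15 without ALA. The outer membrane median stayed negative under each of the 4 scalings, at -0.57 to -1.17 in hypoxia, while that of the matrix was 0.04 with spike scaling. Spike scaling and median centring take 1 array shift each (-0.12 and 0.49) off all hypoxic differences. The intermembrane space median, -0.50 as deposited, therefore stayed negative under both too. The difference between compartments was not tested.

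Of the 34 genes, 26 passed under at least 1 treatment, as did 70% of all probe sets. Lower under both, as were 12% of all probe sets, were 9: TOM5, TOM6, TOM22, TOM40, TOM20, TOM70, TIM13, PAM18 and MGE1. None was higher under both and none passed in opposite directions. Without ALA only, 6 passed (TIM9, TIM10, TIM21, TIM50, PAM17 and MDJ1), and in hypoxia only, 11 did, which by itself does not show that the responses differ. The treatments share no arrays. The difference itself, heme depletion minus hypoxia, passed for 2 of 34 genes, beside 17.8% of all probe sets. TIM10 gave -1.34 (SE 0.36, adjusted p = 0.0358), its fall without ALA being larger than its hypoxic difference, and SAM50 gave 0.84 (SE 0.23, adjusted p = 0.0375). Neither call was stable, as 8 of 16 alternatives ended the TIM10 call and 11 the SAM50 call. The SAM50 call ended without any 1 array (adjusted p = 0.056 to 0.113), with spike scaling (0.379) and without the 2 arrays high in 18S RNA (0.87, adjusted p = 0.127). The TIM10 call ended without either hypoxia array, replicate 1 of either hem1 group or replicate 2 in normoxia (0.0726 to 0.125), with median centring (0.0574) and without the 2 arrays high in 18S RNA (-1.18, adjusted p = 0.141). TIM9 (-1.55, SE 0.53, adjusted p = 0.0816), TIM21 (-1.03, SE 0.39, adjusted p = 0.103) and TOM40 (0.66, SE 0.22, adjusted p = 0.0764) did not pass. For these comparisons treatment, strain and time cannot be told apart.

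**Figure D3:**
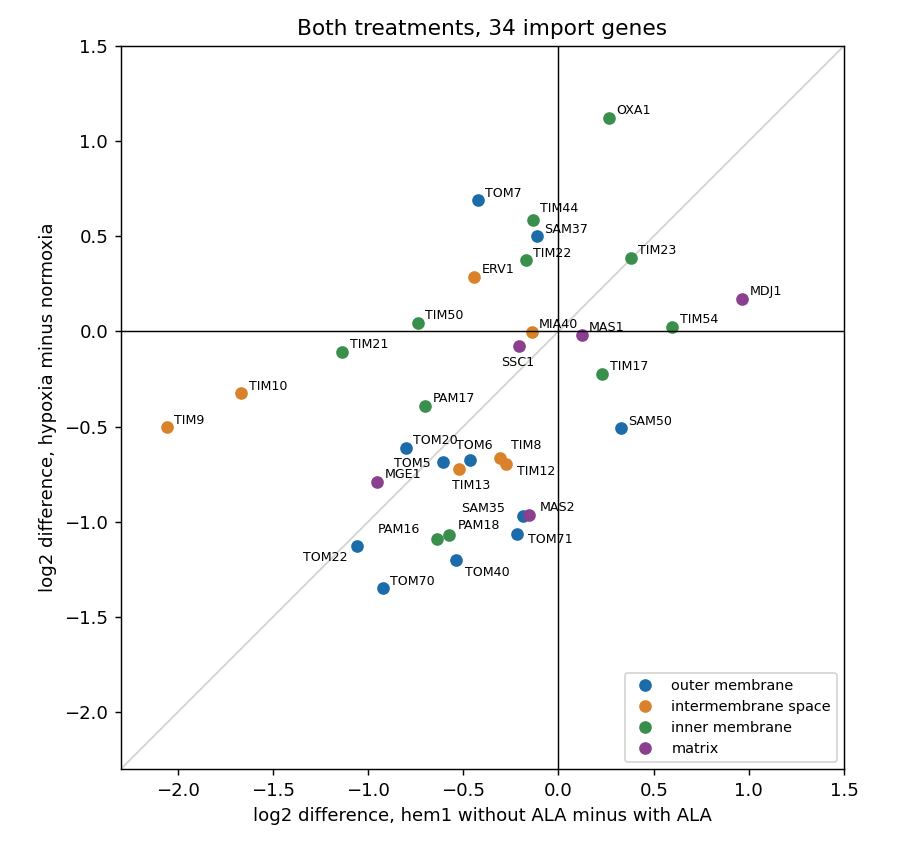
Log2 difference of the 34 import genes without ALA minus with ALA (horizontal) and in hypoxia minus normoxia (vertical), coloured by compartment, with the line of equal change in grey. The TOM genes apart from TOM7 lie at lower left, at or below 0 on both axes. TIM9, TIM10 and TIM21 stand at the left (hypoxic differences of -0.50, -0.33 and -0.11), OXA1 at the top and MDJ1 at the right.

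The hem1 cultures with ALA and the wild type in normoxia differed past the threshold in 2 of 34 import genes, beside 21.7% of all probe sets. TOM71 was lower with ALA than in normoxia by the signals given above (-0.97, SE 0.25, adjusted p = 0.0287), and SAM37 was higher with ALA (0.75, SE 0.18, adjusted p = 0.0205). Without either array with ALA or replicate 2 in normoxia both calls ended, with an adjusted p of 0.0816 to 0.133 for TOM71 and 0.0553 to 0.116 for SAM37, and that of TOM71 also without either hypoxia array (0.0502 and 0.0506). TOM71 was lost with spike scaling (0.174), and SAM37 with median centring (0.0659) and quantile normalization (0.0555). Spike scaling gave 8 higher (23.5%, beside 28.6% of all probe sets) and 0 lower, and median centring 0 higher and 5 lower (14.7%, beside 15.2%), so both counts are near those over all probe sets.

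Of 25 other genes of import, sorting, processing and folding 7 were higher without ALA (28%, beside 30.2% of all probe sets) and none lower (beside 19.7%). In hypoxia 6 were higher (24%, beside 33.3%) and 2 lower (8%, beside 22.5%). The shares of higher genes do not exceed those of all probe sets. Median log2 differences were 0.34 and 0.08. HSP78, a matrix disaggregase that keeps the mitochondrial Hsp70 in solution, read 1351 and 1121 without ALA, 224 and 189 with ALA, 757 and 739 in hypoxia, and 390.1 and 415 in normoxia. It rose 5.98-fold without ALA (2.58, SE 0.17, adjusted p = 1.4e-05) and 1.86-fold in hypoxia (0.89, SE 0.17, adjusted p = 0.0024; 0.0749 with median centring). ECM10, a close paralog of SSC1 whose sharing of probe signal with SSC1 was not tested, read 115.2 and 143 without ALA, 29.2 and 31.5 with ALA, 72.6 and 74.4 in hypoxia, and 24.4 and 23.0 in normoxia. The arrays with ALA and in normoxia lay below their 30th percentile, so it was at least 3.53-fold higher without ALA (adjusted p = 2.7e-04) and at least 2.56-fold higher in hypoxia (adjusted p = 6.6e-04). IMP2, a subunit of the inner membrane peptidase, rose 2.85-fold without ALA (adjusted p = 2.7e-04) and 1.80-fold in hypoxia (adjusted p = 0.0037; 0.115 with median centring, and lost with quantile normalization too).

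The genes of that list that fell in hypoxia were YDJ1 and MIM1. YDJ1, a cytosolic J-protein that escorts precursors, read 4858 and 5039 without ALA, 4972 and 4938 with ALA, 3566 and 3571 in hypoxia, and 5749 and 6986 in normoxia. It fell 1.78-fold in hypoxia (adjusted p = 0.0012), under all alternatives, and did not pass without ALA on the deposited scale (adjusted p = 0.0336, as lower, with median centring). MIM1, an outer membrane insertion factor, read 2364 and 2725 without ALA, 1630.1 and 1519.8 with ALA, 1527 and 1807 in hypoxia, and 2388 and 2170.2 in normoxia. It rose 1.61-fold without ALA (adjusted p = 0.0067) and fell 1.37-fold in hypoxia (adjusted p = 0.0345). The rise was lost with median centring and spike scaling (adjusted p up to 0.166). The fall was lost under 7 of 17 alternatives, among them leaving out replicate 1 in hypoxia or either normoxia array (up to 0.173). With median centring 4 of the 25 genes were higher (16%, beside 19.8% of all probe sets) and 8 lower (32%, beside 34%) without ALA. In hypoxia 1 was higher (4%, beside 20%) and 9 were lower (36%, beside 37%). The shares of lower genes follow those of all probe sets, and the split of this list rests on the scaling.

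Beside the import genes, 23 of 66 mitochondrial ribosomal protein genes were lower without ALA (34.8%, beside 19.7% of all probe sets) and none higher, with a median of -0.38. In hypoxia 16 were lower (24.2%, near the 22.5% of all probe sets) and 3 higher, with a median of -0.17. Of 81 cytosolic ribosomal protein genes 61 were lower without ALA (75.3%) and 67 in hypoxia (82.7%), with medians of -0.68 and -0.88. The difference between these lists and the import genes was not tested.

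The arrays share 1 trimmed mean, but their medians differed: the median log2 signal was 0.40 higher without ALA than with it and 0.49 higher in hypoxia than in normoxia. The cause of this shift was not tested. With each array centred on its median, 22 import genes were lower and none higher without ALA, beside 34% of all probe sets lower, and 21 were lower and none higher in hypoxia, beside 37%. Quantile normalization gave 18 lower and 2 higher without ALA, beside 26.6% lower, and 17 lower and 2 higher in hypoxia, beside 30.2% lower. Scaling to the bacterial spike controls gave 16 lower and 1 higher without ALA, beside 25.4% lower, and 9 lower and 4 higher in hypoxia, beside 16.8% lower. The import genes' median stayed negative under each scaling, at -0.37 to -0.77 without ALA and -0.33 to -0.94 in hypoxia.

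**Figure D4:**
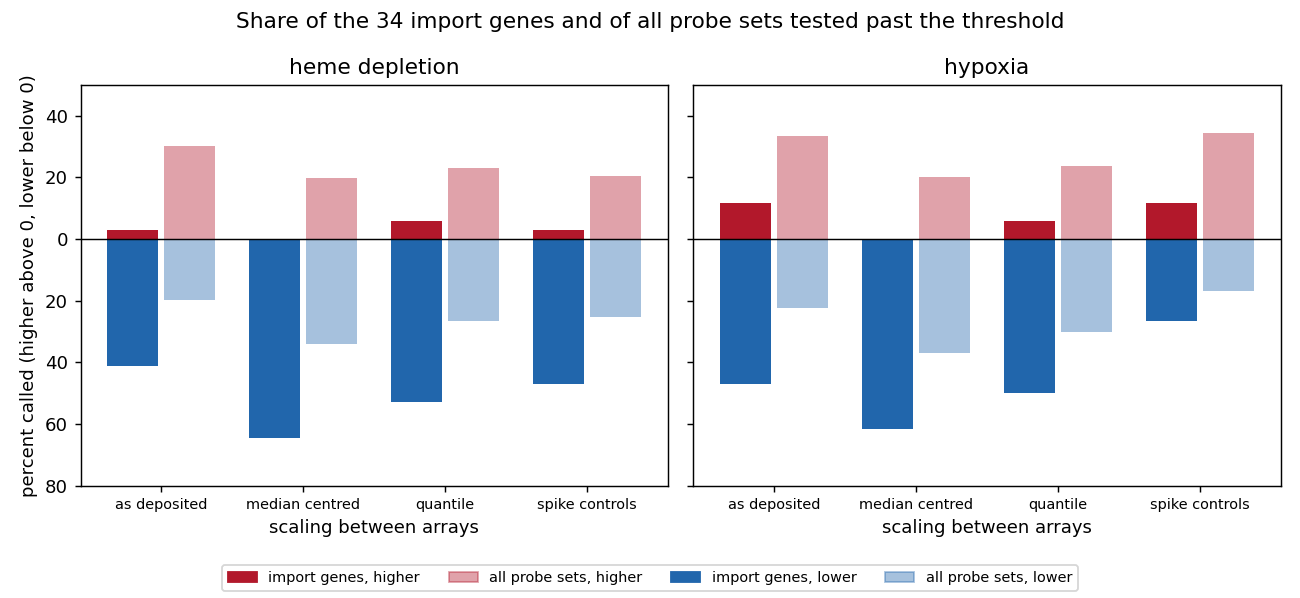
Percent of the 34 import genes (dark) and of all 7081 probe sets tested (pale) that passed as higher (above 0) or lower (below 0) without ALA against with ALA (left) and in hypoxia against normoxia (right), under 4 scalings between arrays. The dark bars below 0 are longer than the pale ones beside them in all 8 pairs, from 26.5% against 16.8% in hypoxia with spike scaling to 64.7% against 34% without ALA with median centring.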

How the data were processed

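Transcripts were measured on 8 Affymetrix arrays of 1 design. The authors deposited 1 linear signal intensity per probe set, which per the submitters' processing notes came from MAS5, with no version named. The trimmed mean of each array, without 2% at each end, lay between 500.42 and 500.58. Genes were named from the platform annotation: of 9275 probe sets other than 60 controls, 6504 had 1 gene, 328 several and 2443 none, and all 6504 matched the RefSeq gene table of assembly R64 by gene ID. Positions are left out, since the array's genome build is unnamed.

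Testing required a signal over the array's own 30th percentile on at least 2 of 8 arrays. The fit to log2 signals used limma (version 3.58.1, under R 4.3.3), a mean for each group, 1 spread shared by all arrays (4 residual and 4.36 prior degrees of freedom) and an intensity trend, and tested two-sided with Benjamini-Hochberg adjustment over 7081 probe sets. Every adjusted p is from this fit or, where said, an alternative of it. The fit was run on simulated arrays with independent noise and changes planted in 1 group, without shifts between arrays. That run cannot tell how such shifts bear on the calls here. A group with fewer than 2 arrays above that percentile gives a fold only as "at least", against the higher of signal and percentile. The number of arrays limits the precision. Members, lists and tests were chosen with earlier results of these data known. Every member is named, with all values where it passed, and from the list of 25 related genes up to 3 per direction with the smallest adjusted p. Alternatives were other scalings, filters, a floor, no trend, the arrays of 1 comparison only, and leaving out arrays. Shares of all probe sets were taken for the scalings only, so counts under the other alternatives have none beside them.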

Additional observations from a re-analysis of the deposited data

Results flagged for a closer look

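Genes that passed the test of the difference between the responses (heme depletion minus hypoxia, limma, adjusted over all probe sets) are given here. Since strain and time differ too, they cannot be told apart from treatment. Among the import genes the values were -1.34 for TIM10 (SE 0.36, adjusted p = 0.0358) and 0.84 for SAM50 (SE 0.23, adjusted p = 0.0375). Among the related genes they were 1.69 for HSP78 (SE 0.24, adjusted p = 0.0042), the only one of the 6 whose call held under all 16 alternatives. MIM1 gave 1.14 (SE 0.22, adjusted p = 0.0110; 0.0656 with spike scaling), YDJ1 0.83 (SE 0.19, adjusted p = 0.0236) and IMP1, for the other subunit of the inner membrane peptidase, 0.93 (SE 0.26, adjusted p = 0.0421). The calls of YDJ1 and IMP1 were lost under 9 and 11 alternatives.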

How the results depend on the processing

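Of the 15 import genes called without ALA 6 passed in the same direction under all 17 alternatives (TOM22, TOM20, TOM70, TIM9, TIM10 and MGE1), and of the 20 called in hypoxia 7 did (TOM6, TOM22, TOM40, TOM70, SAM35, TIM13 and PAM18). No paired analysis was possible because the labels number no replicates, so that no sample of 1 group has a partner in another. The count of genes higher without ALA, 1, was 0 with median centring and 2 with quantile normalization, with the 50th percentile as filter and with a floor, and that of lower genes, 14, was 22 with median centring. In hypoxia the 4 higher genes became 0 with median centring, 2 with quantile normalization, 2 with only the arrays of the comparison and 1 without the 2 arrays high in 18S RNA, and the 16 lower genes 9 with spike scaling. For the difference of the responses, 1 higher became 2 with median centring or a floor and 0 with spike scaling, with no trend and without the high 18S arrays, and 1 lower became 6 with spike scaling and 0 with median centring, no trend or without those arrays. For hem1 with ALA against normoxia, 1 higher became 8 with spike scaling, 2 with the stricter filter or a floor and 0 with median centring or quantile normalization, and 1 lower became 5 with median centring and 0 with spike scaling, the stricter filter, only the arrays of the comparison or without those arrays. Leaving out 1 array at a time gave 1 to 2 higher and 10 to 14 lower without ALA, 1 to 3 higher and 11 to 16 lower in hypoxia (1 higher without replicate 2 in hypoxia), 0 higher and 0 to 5 lower for the difference (5 without replicate 2 of the ALA-free arrays), and 0 to 3 higher and 0 to 1 lower for hem1 with ALA against normoxia. TIM23 turned to -0.10 in hypoxia with median centring, and CYC1, dim in both hem1 groups, to 0.39 without ALA with a floor. Median centring takes the array shift of 0.49 off each hypoxic difference, that of TIM23 included. Every hem1 array read CYC1 under its 30th percentile (48.7 and 46.8 without ALA, 37.1 and 35.5 with ALA). The 0.39 is therefore a difference between these percentiles. The stricter filter left 33 import genes and removed TOM71, so the 0 lower for hem1 with ALA under it is not a failed test. The cause of the other changes was not tested.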
